A study of Mus musculus with 8 samples.

Results

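The 38 genes described here act when a cell divides its chromosomes: they encode parts of the kinetochore and spindle, the spindle checkpoint, condensin, mitotic cyclins, and the enzymes and transcription factors that start and end mitosis. They were named as a list of symbols and found by symbol and Ensembl identifier in a table of 37991 mouse genes, in which all 38 were present. RNA came from adult cardiomyocytes, isolated from hearts of alpha-MHC MERCREMER MADM mice 2 weeks after injection of adenoviruses carrying 4 cell cycle genes. All 8 libraries share that genotype and that treatment, called 4F in the labels, and no uninjected heart was analysed here. The 4 single colored libraries hold cells labelled as having performed cell cycle, and the 4 double colored libraries hold cells labelled as treated but not having performed it. The sources used here do not give the age or sex of the mice or the number of animals behind a library. The p-values below therefore cover only how far these 8 libraries spread, which may be technical.

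MADM (mosaic analysis with double markers) is a genetic system in which Cre recombinase exchanges parts of a pair of homologous chromosomes and so joins the split parts of 2 fluorescent protein genes. When the exchange is followed by division, daughter cells can inherit 1 color each, and a cell with both colors may or may not have divided, because an exchange outside G2 or another way of sorting the chromosomes also leaves both colors. Cre was driven here by the promoter of the alpha myosin heavy chain gene, which is active in cardiomyocytes. Color marks the history of a cell rather than its phase at collection.

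Mitotic genes are among the most strongly phased of the genome. Their promoters are held silent in resting cells by the DREAM complex and are switched on in late S phase and G2 by B-MYB and FOXM1, and many of the proteins are then destroyed at the end of mitosis by the anaphase-promoting complex. Adult cardiomyocytes have largely left the cell cycle, and many that do copy their DNA stop before dividing the cell.

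Libraries held between 23820700 and 30082278 counted reads, of which mitochondrially encoded genes took 82.4% ± 3.97 (SD, n = 4) with a single color and 86.5% ± 1.88 with both colors (p = 0.143, two-sided exact permutation test). Levels are given as CPM, counts per 1000000 counted reads, mitochondrial ones included, scaled by TMM factors. Depending on the library, 1 CPM stood for 22.004 to 38.43 reads. The 38 genes together took 2454 to 7916 reads per library. The 10 marker genes of cardiomyocytes summed to 11742 to 13547 CPM per double colored and 6096 to 11151 CPM per single colored library, led by the cardiac actin gene Actc1. In such bulk libraries, fewer cells of a type and less RNA per cell cannot be told apart.

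Most of the mitotic genes had a higher mean level in single colored cells, but none passed the main test across all genes, which left the replicate numbers out. With the replicate number as a block, 3 members passed, beside 4.97% of all tested genes called higher. Of the 38, 36 had enough reads to be tested, and 34 of these had a positive log2 fold change of single over double colored cells, which is 94.4% against 49.4% of all 12466 genes tested. The members were chosen with earlier results of these data known, so this shared direction is a description and not independent evidence. Their median log2 fold change was 0.60, and that of all tested genes was -0.01. None was called at an adjusted p of 0.05 by edgeR's quasi-likelihood test, by which 2.32% of all tested genes were called higher. The smallest adjusted p among the 36 was 0.0698, for Cenpe. At an unadjusted p under 0.05, 13 members were higher and 1, Cenpf, was lower, which is 36.1% and 2.78% of the members, beside 9.02% and 6.1% of all tested genes.

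**Figure D1:**
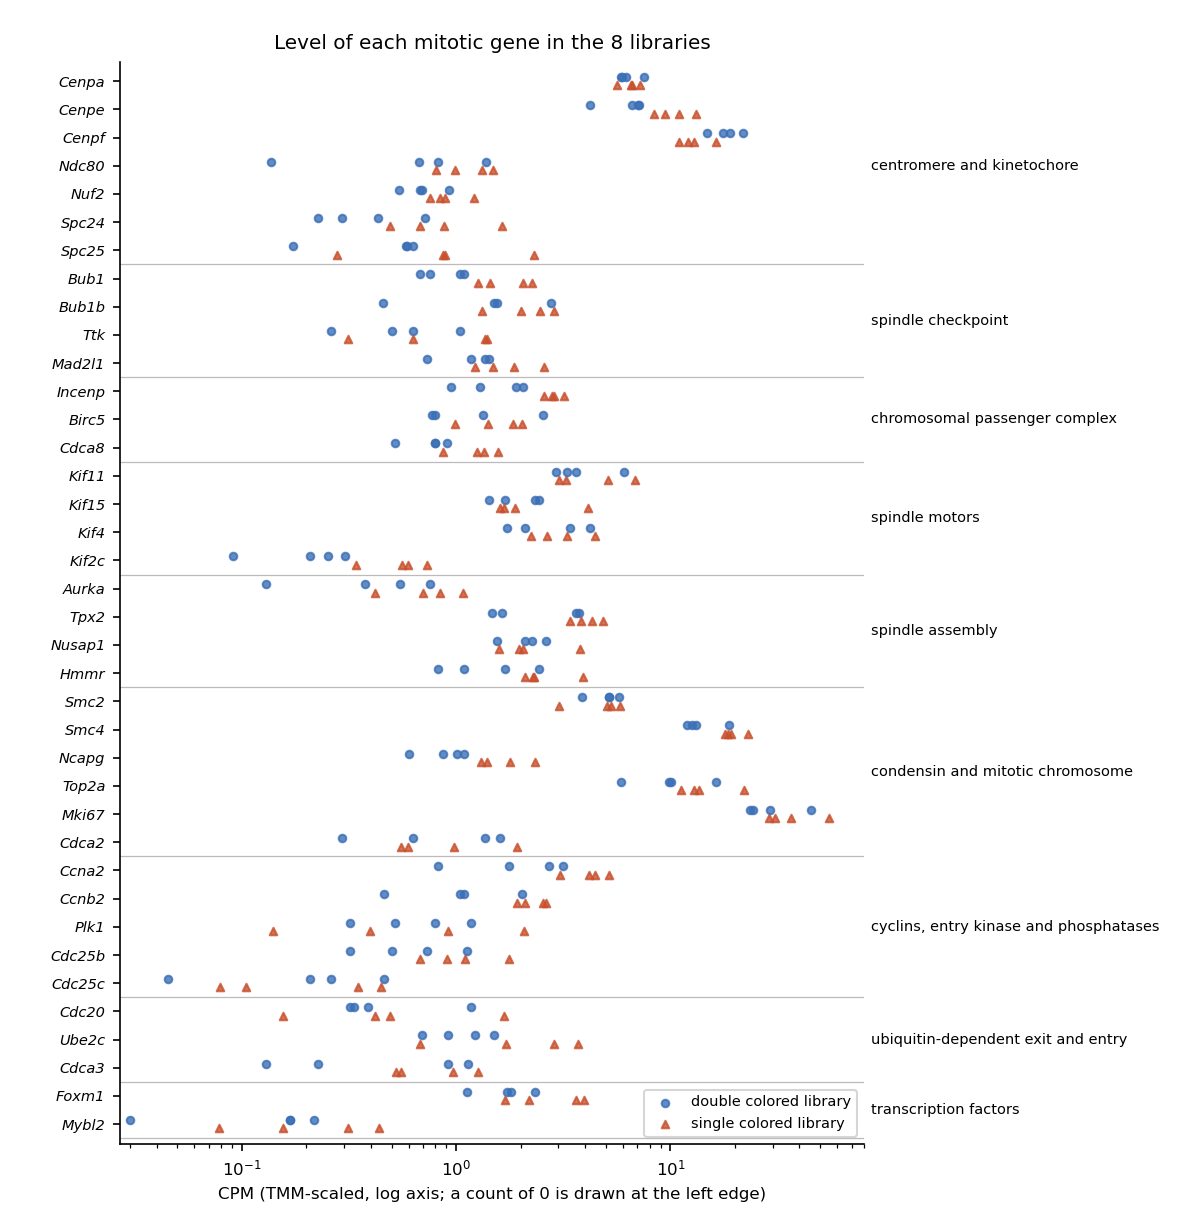
Level of each of the 38 mitotic genes in CPM (log axis) in the 4 double colored (circles) and 4 single colored (triangles) libraries, grouped by role. The 4 triangles lie to the right of the 4 circles for Cenpe, Bub1, Incenp, Kif2c and Ncapg, and the marks of the other genes overlap.

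The filter on low counts bears on this count. It asks for about 0.368 CPM in 4 libraries, taken before TMM scaling. Because most TMM factors were larger for single colored libraries, levels before that scaling stand relatively higher there. In all 8 libraries, 24 of the 36 tested members reached the filter level. Of those 24, 22 had a positive log2 fold change, with a median of 0.56. Another 9 reached it in all 4 single colored libraries but in fewer than 4 double colored ones, and no member did the reverse. Those 9, tested only through the single colored libraries, were Ndc80, Spc24, Bub1b, Ttk, Kif2c, Aurka, Cdca2, Cdc25b and Cdca3. Of these, Kif2c and Spc24 were counted above as higher at an unadjusted p under 0.05. Kif2c and Aurka are also counted below among the members higher in all 4 pairs. The 2 members that were not tested, Cdc25c and Mybl2, had 56 and 42 reads in all. Over all 38 members, without any filter, 36 had a higher mean CPM in single colored cells, Cdc25c only just (0.2445 against 0.2436 CPM). In the authors' deposited table, 35 of the 38 had a log2 fold change that pointed to single colored cells, once its sign was turned to match the direction used here. Cdc25c, at -0.002, was not among those 35. For these counts, and for the 24 members above, no share over all genes was computed.

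Separation of the groups was less common than a shared direction. All 4 single colored libraries lay above all 4 double colored ones for 5 members, 13.9% of the 36, against 5.37% of all tested genes. Kif2c is among the 5, although it was tested only through the single colored libraries. No member lay below in the same way, as 3.76% of all tested genes did. Compared by replicate number, the single colored library was the higher one in all 4 pairs for 13 members (36.1%), against 14% of all tested genes. Those 13 were Foxm1, Ncapg, Top2a, Incenp, Nuf2, Bub1, Tpx2, Aurka, Ccna2, Kif2c, Mki67, Smc4 and Cenpe. The median difference of the members within a pair was 0.44, 0.38, 0.57 and 0.61 log2 units for replicates 1 to 4, with 29, 28, 25 and 28 of 36 members higher in the single colored library. In the same pairs the median of all tested genes was -0.018, 0.0022, 0.0050 and -0.0038. With the replicate number as a block, 3 members passed an adjusted p of 0.05, namely Cenpe, Ccna2 and Smc4, beside 4.97% of all tested genes called higher. DESeq2 called 1 member, Cenpe, beside 3.65% of all tested genes.

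**Figure D2:**
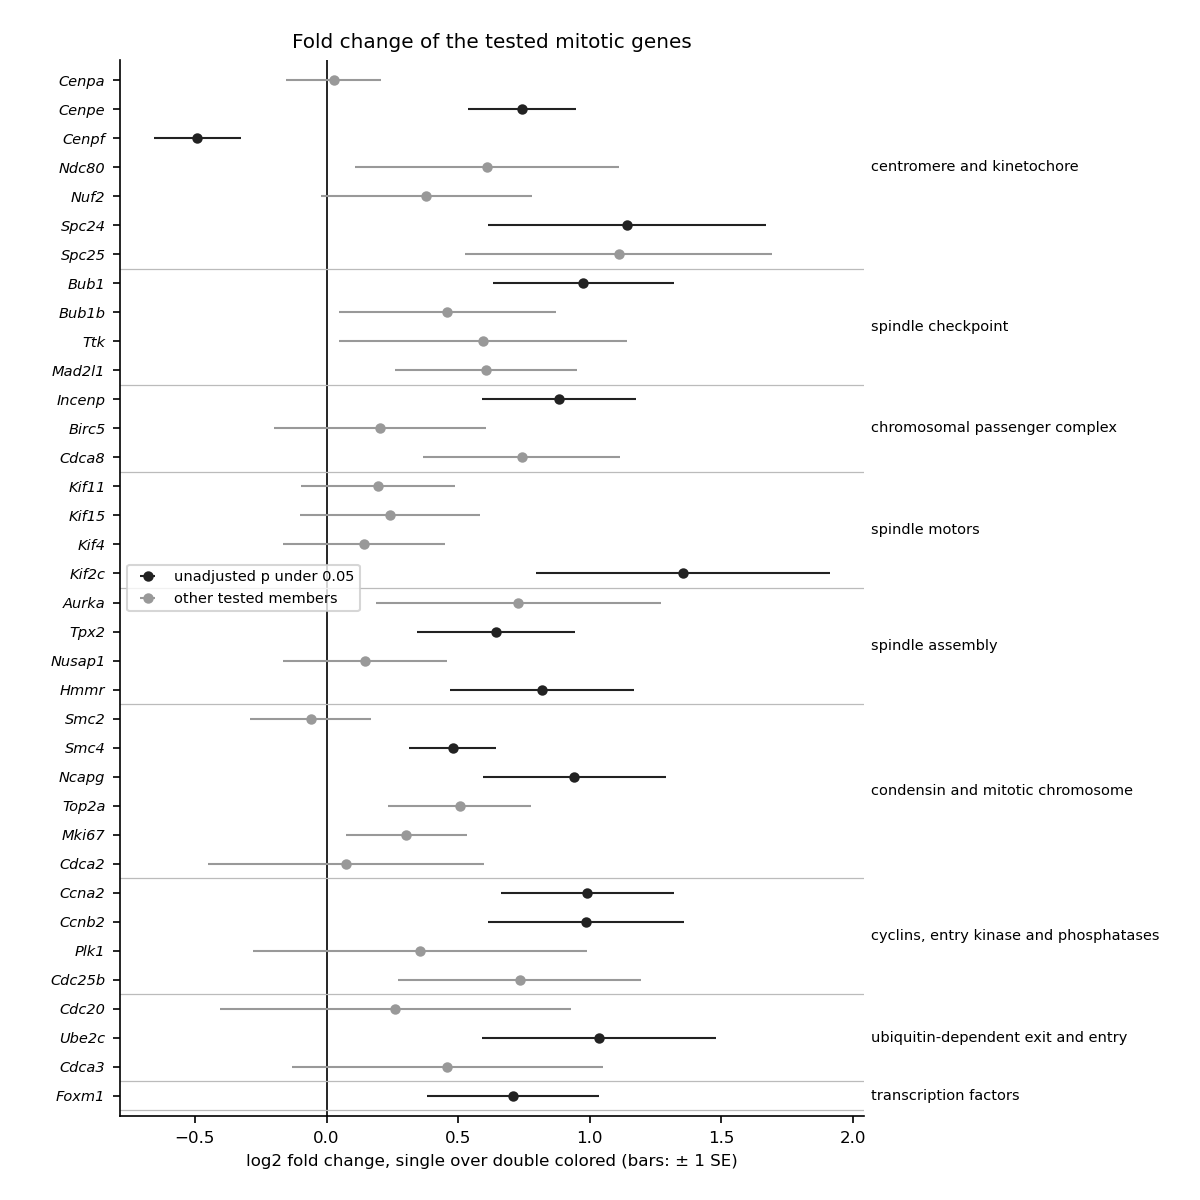
Log2 fold change of single over double colored cells for the 36 tested mitotic genes, with bars of 1 standard error on each side; black marks have an unadjusted p under 0.05. Of the 36 points, 34 lie right of 0, and Cenpf is the black point on the left.

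The choice of scaling moved the whole set. TMM factors were 0.733 to 0.972 for double colored and 0.953 to 1.44 for single colored libraries. With scaling by library totals alone, the median log2 fold change of all genes moved up by 0.49, and that of the members moved from 0.60 to 1.09. Taken gene by gene, the median shift of the members was 0.52. Under that scaling 12 members passed the adjusted threshold, beside 11.1% of all tested genes, and Smc2 turned from lower to higher. The difference between the members' median and the median of all genes was therefore nearly the same under both scalings.

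Some libraries stood apart. Summed over the 38 genes, double colored libraries reached 170, 112, 108 and 123 CPM and single colored ones 207, 146, 138 and 157 CPM for replicates 1 to 4. Within each group the library numbered 1 was the highest for 24 (double colored) and 21 (single colored) of the 38 members. The sums of the groups overlapped, because double colored replicate 1 lay above 3 of the single colored libraries. With both libraries numbered 1 left out, an alternative added after seeing the data, the 3 single colored libraries lay above the 3 double colored ones for 10 members (27.8%), against 9.23% of all tested genes, and below them for 1 (8.12% of all tested genes). No member was called by edgeR.

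**Figure D3:**
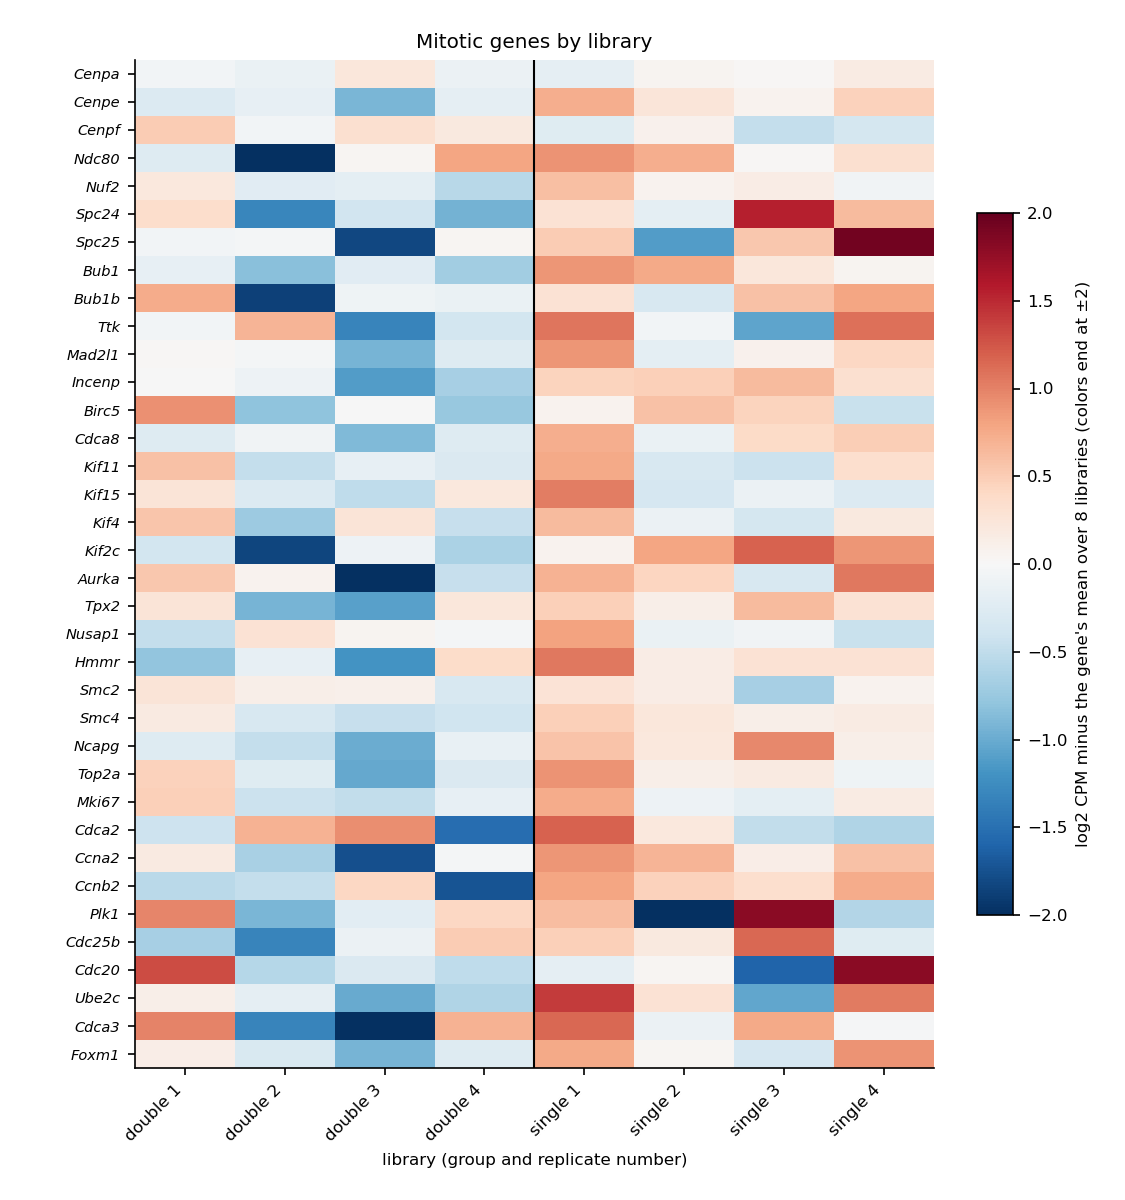
Log2 CPM of each tested mitotic gene in each library, minus the gene's mean over the 8 libraries (red above, blue below, colors end at 2 log2 units). The column of single colored replicate 1 is mostly red and that of double colored replicate 3 mostly blue, while the row of Cenpf runs the other way.

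Promoters of the members were compared because several of the known controls of mitotic genes act through short elements near the start site. The CCAAT box is bound by NF-Y, and the cell cycle genes homology region (CHR), TTTGAA, is bound by DREAM and by the B-MYB and FOXM1 complexes; TTTAAA is a variant of it. RefSeq promoters of build GRCm38.p6, from 250 bases before to 50 bases after the start, were found for 30 of the 38 members and were searched on both strands. CCAAT was present in 22 of the 30 (73.3%), against 37.4% of 32851 promoters of the same length. TTTGAA was also present in 22 (73.3%), against 17.9%, and TTTAAA in 8 (26.7%), against 13.2%. Both CCAAT and TTTGAA were present in 19 (63.3%), against 6.95%. Matches of different motifs overlapped once, in Cdca8. In 21 of the members TTTGAA lay between 100 bases before and 50 bases after the start.

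The next 6 promoters run from base -120 to base 30, counted from the start site with no base 0, on the strand of the gene, with matches on either strand in capitals (ATTGG and TTCAAA are the reverse complements of CCAAT and TTTGAA). They are shown because Cenpe, Bub1, Ncapg, Ccnb2 and Ube2c have the smallest p of their roles among the members with a promoter, and Cenpf is the member that was lower. The first 5 lie at chr3:135212443-135212592 (plus strand), chr2:127831830-127831979 (minus), chr5:45669805-45669954 (plus), chr9:70421525-70421674 (minus) and chr2:164769809-164769958 (plus), and that of Cenpf at chr1:189688057-189688206 (minus).
Cenpe: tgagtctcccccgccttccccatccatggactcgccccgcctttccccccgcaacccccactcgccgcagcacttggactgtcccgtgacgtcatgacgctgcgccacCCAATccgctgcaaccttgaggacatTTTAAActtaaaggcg
Bub1: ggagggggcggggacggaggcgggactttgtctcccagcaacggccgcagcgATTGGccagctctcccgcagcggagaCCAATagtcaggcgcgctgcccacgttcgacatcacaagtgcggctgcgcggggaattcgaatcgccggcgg
Ncapg: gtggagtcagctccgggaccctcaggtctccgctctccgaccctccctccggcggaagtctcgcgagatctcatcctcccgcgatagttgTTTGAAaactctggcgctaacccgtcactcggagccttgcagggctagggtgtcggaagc
Ccnb2: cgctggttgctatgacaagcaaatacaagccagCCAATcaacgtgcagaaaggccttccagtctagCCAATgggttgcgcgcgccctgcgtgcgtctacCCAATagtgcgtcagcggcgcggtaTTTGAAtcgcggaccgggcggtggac
Ube2c: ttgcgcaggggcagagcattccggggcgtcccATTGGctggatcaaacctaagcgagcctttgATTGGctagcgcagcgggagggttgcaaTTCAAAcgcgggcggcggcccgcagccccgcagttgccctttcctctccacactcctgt
Cenpf: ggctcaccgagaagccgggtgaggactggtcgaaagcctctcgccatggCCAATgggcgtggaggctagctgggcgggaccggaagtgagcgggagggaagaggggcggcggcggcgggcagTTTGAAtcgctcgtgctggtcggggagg

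Ccnb2 has 3 CCAAT boxes at even spacing ahead of a TTTGAA just past its start, and Ube2c carries the same kinds of element in the opposite orientation. Cenpe has CCAAT with the TTTAAA variant, Bub1 has CCAAT boxes only, and Ncapg has TTTGAA in this window with its CCAAT box farther upstream. Cenpf, whose level differed in the other direction, holds both CCAAT and TTTGAA. Across tested members the median log2 fold change was 0.48 for the 22 with TTTGAA and 0.61 for the 7 without, and 0.55 for the 22 with CCAAT and 0.38 for the 7 without.

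**Figure D4:**
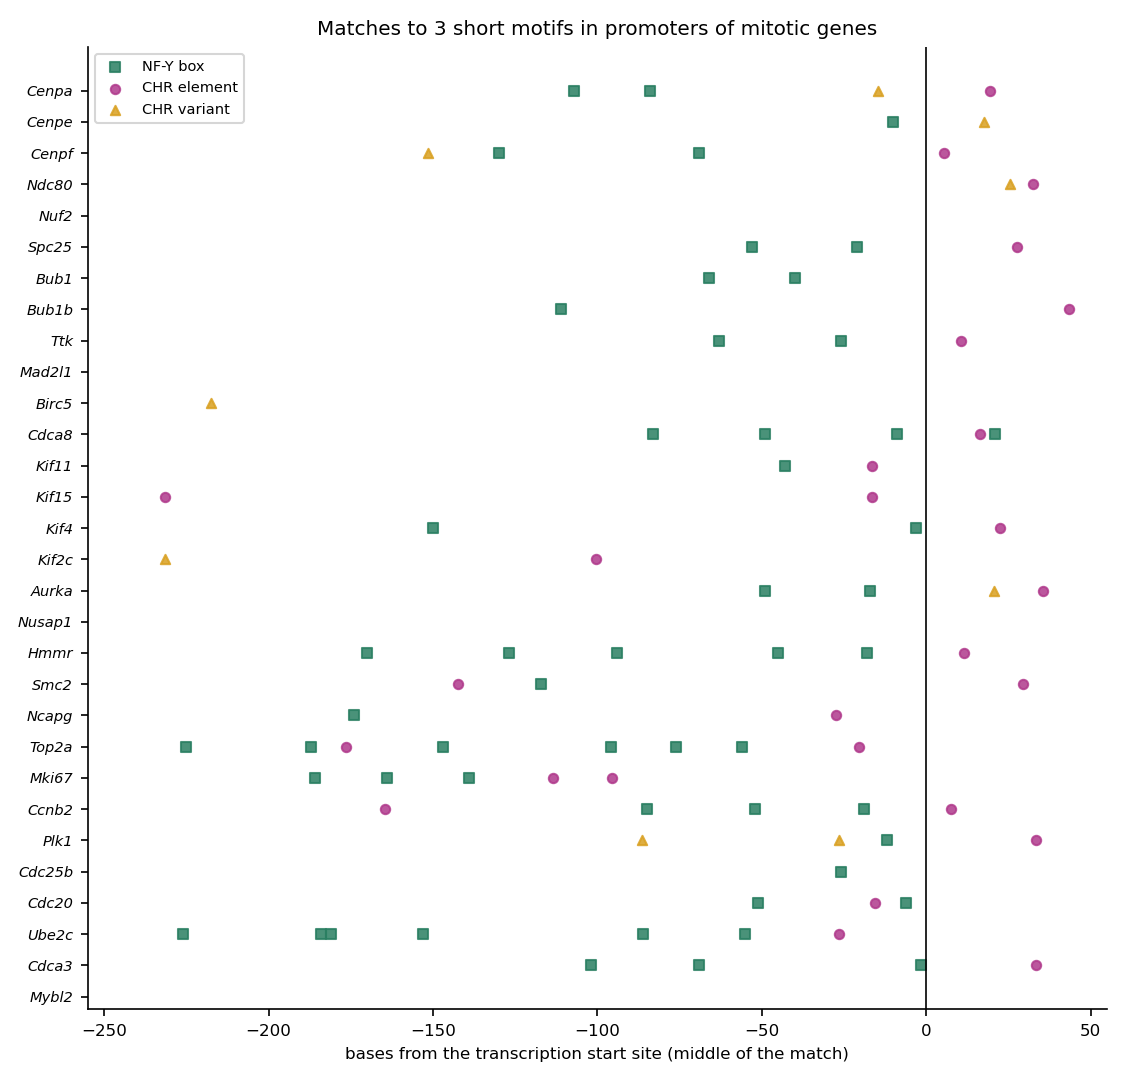
Position of NF-Y box, CHR and CHR variant matches in the 30 member promoters, in bases from the start site. Most CHR matches lie from 50 bases before to 50 bases after the start, most NF-Y boxes lie upstream of it, and Nuf2, Mad2l1, Nusap1 and Mybl2 have no match.

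The kinetochore joins a chromosome to spindle microtubules, and 6 of its 7 members had a positive log2 fold change (median 0.61). Among them Ndc80 and Spc24 were tested only through the single colored libraries, and the median is the value of Ndc80. Cenpe, a kinesin that carries chromosomes to the spindle equator (chromosome 3, 134875527 to 134936504 in mm9), stood at 6.62, 7.14, 4.23 and 7.06 CPM in double colored replicates 1 to 4 and at 13.2, 9.46, 8.40 and 10.95 CPM in single colored replicates 1 to 4. Every single colored library lay above every double colored one. The log2 fold change was 0.74 ± 0.21 (SE), with an adjusted p of 0.0698. It passed the threshold with the replicate block (adjusted p = 0.00936), with DESeq2 (0.0269) and with library totals (0.00197), and the adjusted p ran from 0.00197 to 0.233 over 16 alternatives.

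Cenpf, a large coiled-coil protein of the outer kinetochore and nuclear envelope (chromosome 1, 191464478 to 191511965 in mm9), went the other way. It stood at 21.9, 14.8, 19.1 and 17.6 CPM in double and at 12.9, 16.2, 11.01 and 12.03 CPM in single colored libraries. Single colored replicate 2 lay above double colored replicate 2, so the groups overlapped, and the log2 fold change was -0.49 ± 0.17 (SE) with an adjusted p of 0.151. Cenpe and Cenpf, which both encode proteins of the outer kinetochore, had opposite signs in the same libraries, a difference that was not itself tested.

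The NDC80 complex is the microtubule-binding core of the kinetochore and is made of the products of Ndc80, Nuf2, Spc24 and Spc25. Spc24 stood at 0.712, 0.227, 0.432 and 0.293 CPM in double and at 0.681, 0.489, 1.64 and 0.873 CPM in single colored libraries. Double colored replicate 1 lay above single colored replicates 1 and 2, and the log2 fold change was 1.14 ± 0.53 (SE, adjusted p = 0.318). Spc24 passed the filter level in 4 single and 2 double colored libraries, so it was tested only through the group where it is high. Without single colored replicate 3 it was 0.69. The other 3 subunits had log2 fold changes of 0.38 (Nuf2), 0.61 (Ndc80) and 1.11 (Spc25), with standard errors of 0.40 to 0.58. Leaving out 1 library took Spc25 down to 0.45 (single colored 4), Ndc80 to 0.27 (double colored 2) or 1.07 (double colored 4), and Nuf2 to 0.21 (single colored 1). Cenpa, the histone H3 variant that marks the centromere, differed least of the 7, at 0.03 ± 0.18 (SE).

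The spindle checkpoint holds back anaphase until all kinetochores are attached, and its 4 members all had positive log2 fold changes, from 0.46 to 0.98. Bub1, a checkpoint kinase, stood at 1.09, 0.682, 1.04 and 0.752 CPM in double and at 2.25, 2.06, 1.43 and 1.27 CPM in single colored libraries. The groups did not overlap, and the log2 fold change was 0.98 ± 0.35 (SE, adjusted p = 0.174). Mad2l1, which encodes a part of the inhibitor of the anaphase-promoting complex that the checkpoint produces, stood at 1.42, 1.36, 0.735 and 1.17 CPM against 2.57, 1.22, 1.48 and 1.87 CPM. Single colored replicate 2 lay within the double colored range (log2 fold change 0.61 ± 0.35 SE, adjusted p = 0.441). The kinase gene Ttk and the checkpoint gene Bub1b, tested only through the single colored libraries, had log2 fold changes of 0.59 and 0.46. Without single colored replicate 1 those of Mad2l1 and Ttk were 0.37 and 0.33, and without double colored replicate 2 that of Bub1b was 0.15.

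The chromosomal passenger complex corrects wrong attachments and later guides cytokinesis. Its scaffold gene Incenp stood at 2.05, 1.91, 0.951 and 1.30 CPM in double and at 2.80, 2.86, 3.20 and 2.58 CPM in single colored libraries. The groups did not overlap and the single colored values were close to each other, with a log2 fold change of 0.88 ± 0.29 (SE, adjusted p = 0.142). Cdca8, which encodes the subunit borealin, stood at 0.796, 0.909, 0.518 and 0.794 CPM against 1.57, 0.873, 1.25 and 1.35 CPM. Only single colored replicate 2 fell inside the double colored range (0.74 ± 0.38 SE, adjusted p = 0.373). Birc5, the survivin gene, had a log2 fold change of 0.20, which was 0.0062 without double colored replicate 2 and 0.69 without double colored replicate 1. Aurkb, which encodes the kinase of the complex and was not a member, had one of 1.00 ± 0.45 (SE, adjusted p = 0.299).

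Spindle motors split into 1 gene with a large difference and 3 with small ones. Kif2c, a kinesin that takes microtubules apart at the kinetochore, was counted in 6, 2, 7 and 5 reads in double and in 13, 16, 28 and 15 reads in single colored replicates 1 to 4. Those reads correspond to 0.251, 0.0909, 0.302 and 0.209 CPM against 0.341, 0.558, 0.729 and 0.595 CPM. The groups did not overlap, and the log2 fold change of 1.35 ± 0.56 (SE, adjusted p = 0.257) was the highest of the 36 and rests on few reads. Before TMM scaling, Kif2c reached the level asked for by the filter in 4 single and 0 double colored libraries. It was therefore tested only through the group where it is high, and its separation and rank carry no weight of their own. Kif11, Kif15 and Kif4, the motors that push the spindle poles apart or bind chromosome arms, had log2 fold changes of 0.14 to 0.24. Kif15 was carried by 1 library: it stood at 2.43, 1.68, 1.43 and 2.34 CPM in double and at 4.11, 1.61, 1.87 and 1.67 CPM in single colored libraries. Its log2 fold change was 0.24 ± 0.34 (SE, adjusted p = 0.814) and turned to -0.20 without single colored replicate 1.

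Among spindle assembly genes Hmmr and Tpx2 had the smallest p. The log2 fold change of Aurka was larger than that of Tpx2, but Aurka was tested only through the single colored libraries. Tpx2, which activates Aurora A and nucleates microtubules, stood at 3.73, 1.64, 1.47 and 3.64 CPM in double and at 4.32, 3.39, 4.84 and 3.81 CPM in single colored libraries. Double colored replicates 1 and 4 lay above single colored replicate 2 and below the other single colored libraries (0.64 ± 0.30 SE, adjusted p = 0.322). Hmmr, a receptor of hyaluronan that also binds the spindle, stood at 1.09, 1.68, 0.821 and 2.42 CPM against 3.90, 2.09, 2.29 and 2.30 CPM. Double colored replicate 4 lay above all single colored libraries but replicate 1, and the log2 fold change was 0.82 ± 0.35 (SE, adjusted p = 0.277). Aurka, the Aurora A gene, and Nusap1, a microtubule bundler, had log2 fold changes of 0.73 and 0.15. That of Aurka was 0.42 without double colored replicate 3, and that of Nusap1 was -0.19 without single colored replicate 1.

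Condensin compacts chromosomes for mitosis, and its members differed from each other. Smc4, one of its ATPase subunits, stood at 18.8, 13.2, 11.97 and 12.6 CPM in double and at 23.1, 19.2, 17.95 and 18.6 CPM in single colored libraries. Double colored replicate 1 alone reached the single colored range, and the log2 fold change was 0.48 ± 0.17 (SE, adjusted p = 0.163). With the replicate block the adjusted p was 0.0222, in a range from 0.00849 to 0.399 over 16 alternatives. Ncapg, a regulatory subunit, stood at 1.005, 0.863, 0.605 and 1.09 CPM against 1.78, 1.40, 2.34 and 1.31 CPM. The groups did not overlap (0.94 ± 0.35 SE, adjusted p = 0.195). Smc2, the ATPase partner of Smc4, had a log2 fold change of -0.06 ± 0.23 (SE), which was positive when double colored replicate 1 or replicate 3 of the single colored group was left out and with scaling by library totals or nuclear-encoded totals.

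Top2a and Mki67 are widely used proliferation markers and were among the most abundant members. Mki67 encodes Ki-67, which coats mitotic chromosomes, and stood at 30.6 ± 10.2 CPM in double and 37.7 ± 11.9 CPM in single colored libraries (SD, n = 4 each). Its log2 fold change was 0.30, and single colored replicate 1, at 54.8 CPM, and double colored replicate 1, at 45.4 CPM, were the highest libraries. Without single colored replicate 1 the log2 fold change of Mki67 was 0.058, and without double colored replicate 1 it was 0.55. Top2a, the topoisomerase that untangles sister chromatids, differed by 0.51 log2 units (adjusted p = 0.414), by 0.24 without single colored replicate 1 and by 0.80 without double colored replicate 1. For Cdca2, a phosphatase adaptor of mitotic exit, the log2 fold change was 0.07 with a standard error of 0.53.

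Cyclins, phosphatases and the Polo kinase drive entry into mitosis. Ccna2, or cyclin A2, which acts in S phase and G2, stood at 3.14, 1.77, 0.821 and 2.72 CPM in double and at 5.16, 4.47, 3.04 and 4.17 CPM in single colored libraries. Only double colored replicate 1 reached above the lowest single colored library, and the log2 fold change was 0.99 ± 0.33 (SE, adjusted p = 0.145). The replicate block gave an adjusted p of 0.0131, in a range from 0.00346 to 0.347 over 16 alternatives. Ccnb2, or cyclin B2, a partner of Cdk1, stood at 1.05, 1.09, 2.03 and 0.460 CPM against 2.62, 2.09, 1.93 and 2.54 CPM. Double colored replicate 3 was the exception to the separation (0.99 ± 0.37 SE, adjusted p = 0.207). Plk1 and Cdc25b had log2 fold changes of 0.35 and 0.73, and that of Plk1 was -0.02 with the replicate block and -0.51 without single colored replicate 3, the library without which Cdc25b was 0.41.

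Ubiquitin-dependent turnover starts anaphase and ends mitosis. Ube2c, the ubiquitin-conjugating enzyme of the anaphase-promoting complex, stood at 1.51, 1.23, 0.691 and 0.919 CPM in double and at 3.69, 1.71, 0.677 and 2.86 CPM in single colored libraries. Single colored replicate 3 was the lowest of all 8, and the other 3 single colored libraries lay above every double colored one (1.04 ± 0.44 SE, adjusted p = 0.278). Of the exon bases of Ube2c, 22.8% overlap Tnnc2, a troponin gene on the opposite strand, so its reads are uncertain. Cdca3, a trigger of the entry into mitosis, and Cdc20, the activator of the anaphase-promoting complex, had log2 fold changes of 0.46 ± 0.59 (SE, adjusted p = 0.792) and 0.26. Without 1 library Ube2c was as low as 0.66 (single colored 1), Cdca3 as low as 0.12 (double colored 3) and Cdc20 as low as -0.66 (single colored 4).

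Foxm1 encodes the factor that binds many of these promoters in G2, and it stood at 2.34, 1.73, 1.12 and 1.80 CPM in double and at 3.62, 2.20, 1.69 and 3.97 CPM in single colored libraries. Single colored replicate 3 lay below 3 of the double colored libraries, and the log2 fold change was 0.71 ± 0.33 (SE, adjusted p = 0.318). Mybl2, the B-MYB gene, was at or below 0.437 CPM in all 8 libraries and had no read in double colored replicate 2.

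Set on one scale per length of gene, the order of the members was much alike in both groups, with a Spearman rank correlation across the 38 genes of 0.955. In double colored cells Mki67 (3.03 ± 1.013 CPM per kb, SD, n = 4), Smc4 (2.81 ± 0.63), Cenpa (2.55 ± 0.31) and Cenpf (1.61 ± 0.26) were the most abundant, and Mybl2 (0.0297) the least. The first 3 did not differ from each other beyond their spread. In single colored cells the order at the top was Smc4 (3.92 ± 0.46), Mki67 (3.74 ± 1.18) and Cenpa (2.60 ± 0.26). Apart from level, 9 of the 38 genes lie on chromosome 2. Exons of 10 members overlap those of another gene, and since no source used here says whether counting used strand, reads there cannot be assigned with certainty; the largest overlaps are those of Ube2c, of Kif4 with Pdzd11 (15.1%) and of Ccna2 with Exosc9 (14.6%).

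Other genes of the same machinery differed less as a set, and these lists too were chosen with earlier results known. Among 84 of them outside the 38, 75 were tested, 48 had a positive log2 fold change (beside 49.4% of all tested genes), and the median was 0.13. By list, the median ran from 0.03 for checkpoint, separase and cohesin genes to 0.30 for spindle genes. None was called by edgeR, and 2 were higher and 1 lower at an unadjusted p under 0.05, beside 9.02% and 6.1% of all tested genes. In each list the gene with the smallest p was Zwilch among other kinetochore genes (0.99, adjusted p = 0.478), the separase gene Espl1 among checkpoint and cohesin genes (0.71, 0.463), Ncapg2 among condensin genes (1.04, 0.164), Aurkb among spindle genes, and Arpp19 among mitotic entry genes (-0.41, 0.306). Ncapg2, a subunit of the second condensin complex, stood at 1.67, 2.82, 0.821 and 2.13 CPM in double and at 6.03, 4.15, 2.37 and 2.74 CPM in single colored libraries and passed the threshold with the replicate block. The labels do not name the 4 injected genes. Of Cdk1, Ccnb1, Cdk4 and Ccnd1, the set known as 4F in cardiomyocytes, Ccnb1 differed by 1.35 ± 0.66 log2 units (SE, adjusted p = 0.356) and the others by -0.13 to 0.02. Ccnb1 was counted in 17, 9, 0 and 6 reads in double and in 28, 29, 48 and 13 reads in single colored replicates 1 to 4. It reached the filter level in all single colored but not all double colored libraries, so it was tested only through the group where it is high.

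Several markers of other cell types moved with the comparison. Of 12 lymphocyte markers 9 were tested and 8 were called higher in single colored cells. Their sum was 2.21 to 8.56 CPM across double colored and 23.7 to 50.6 CPM across single colored libraries. Gzmb, the granzyme B gene and the most abundant of them, was the tested one not called (2.20 ± 0.62 SE, adjusted p = 0.133). Of the called ones, Cd3e alone reached the filter level in every library. Cd3d, Cd3g, Cd4, Cd8a, Nkg7, Il7r and Cd2 reached it in all single colored but not in all double colored libraries. They were thus tested only through the group where they are high. Myeloid markers summed to 128 to 172 CPM and to 249 to 421 CPM, with 5 of 13 called higher and Lyz2 the most abundant. The log2 fold change was negative for 2 of the 13, Mrc1 (-0.40) and Cx3cr1 (-0.16). Mrc1 was lower at an unadjusted p under 0.05 and in all 4 numbered pairs. Fibroblast markers summed to 300.2 to 738 CPM and to 623 to 1848 CPM, with 1 of 8 called, the collagen gene Col1a1 (log2 fold change 1.76, adjusted p = 0.0460). Among the 8, 2 had a negative log2 fold change, Tcf21 (-0.79, lower in all 4 numbered pairs) and Dcn (-0.10), and Pdgfra differed by 0.09. With the replicate block 9 myeloid, 9 lymphocyte and 4 fibroblast markers were called higher, the last being Col1a1, Col1a2, Col3a1 and Postn. Of the 7 endothelial and the 7 smooth muscle and pericyte markers, led by Cdh5 and Rgs5, edgeR called none (1 higher and 1 lower at an unadjusted p under 0.05), and the replicate block called the endothelial gene Vwf higher (adjusted p = 0.0105), with sums of 131 to 175 against 127 to 161 CPM and of 299 to 411 against 237 to 323 CPM. None of the 10 cardiomyocyte markers was called by edgeR, 9 had a negative log2 fold change and were lower in all 4 numbered pairs, and 3 were lower at an unadjusted p under 0.05. With the replicate block 2 were called lower, Tnni3 (adjusted p = 0.0423) and Pln (0.0366).

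**Figure D5:**
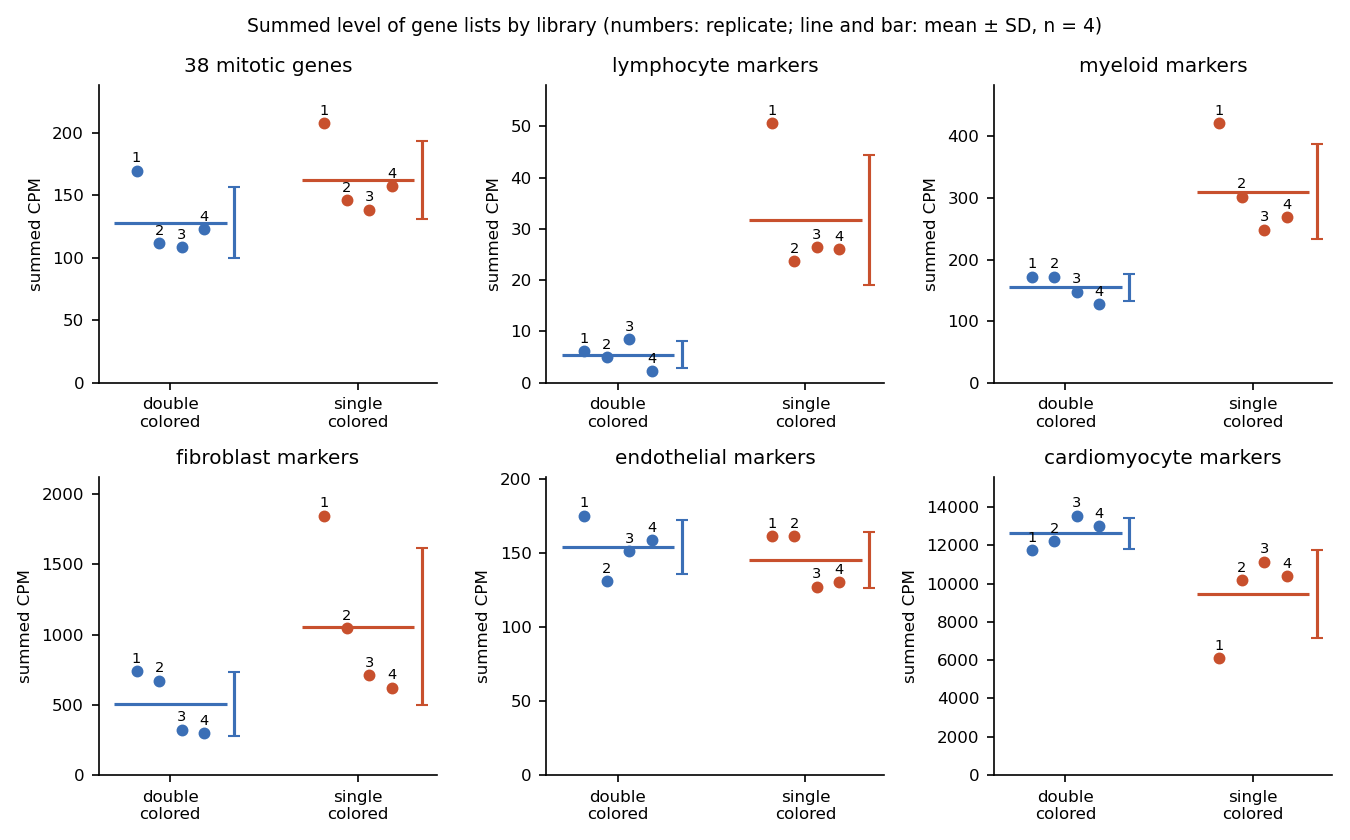
Summed CPM of the 38 mitotic genes and of 5 marker lists in each library, with replicate numbers, the mean and the SD (n = 4 per group). Single colored replicate 1 is the highest of all libraries for mitotic, lymphocyte, myeloid and fibroblast genes and the lowest for cardiomyocyte markers.

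Single colored replicate 1 held both the highest mitotic sum, 207 CPM, and the highest lymphocyte, myeloid and fibroblast sums, with the lowest cardiomyocyte sum. Double colored replicate 1, with the second highest mitotic sum, had the highest fibroblast sum of its group, 738 CPM, above single colored replicates 3 and 4 (710 and 623 CPM). Its myeloid sum of 172 CPM and its lymphocyte sum of 6.20 CPM lay below those of every single colored library. Lymphocyte and myeloid sums were higher, and cardiomyocyte sums lower, in every single colored than in every double colored library. The mitotic sums of the groups overlapped. The part of other cell types in the levels of the mitotic genes was not tested.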

How the data were processed

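RNA was measured in 8 libraries of mouse cardiomyocytes, from RNA extracted with the miRNeasy Micro Kit and amplified with an Ovation v2 kit, per the labels. The submitters' processing notes name STAR 2.5.2b, Subread and featureCounts and the build mm9. Per the file headers, the deposited table holds raw read counts and no estimated counts, and all its values were whole numbers. In the authors' deposited log2 fold changes a positive value means higher in double colored cells, so their sign was turned. Gene coordinates are those of the deposited table.

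Symbols were matched by Ensembl identifier. The test was edgeR 4.0.16 (R 4.3.3), robust quasi-likelihood, on all 8 libraries after filterByExpr (minimum count 10) and TMM scaling, with Benjamini-Hochberg adjustment at 0.05 over 12466 genes. It was tested on simulated data. Alternatives were DESeq2 1.42.0, other scalings and filters, a replicate block and leaving out each library. Same-numbered libraries deviated together (correlations 0.257, 0.126, 0.136 and 0.139; highest other 0.108), so the numbers were taken to pair them. The main test left this pairing out, and the replicate block used it.

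The members and lists were chosen with earlier results of these data known. Members with an unadjusted p under 0.05 are given in every library; up to 2 per role with the smallest p are given with full statistics; from each pathway list, the gene with the smallest p; from each marker list, the most abundant gene and those at 0 in a group, of which 1 result is not reported here. Exon overlaps were computed with GenomicRanges 1.54.1. Depth limits precision most for members under 1 CPM.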

Additional observations from a re-analysis of the deposited data

Results flagged for a closer look

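In 4 of 76 groups of 4 libraries, a group being 1 member in 1 color, 1 library lay far from the rest by Dixon's test, and chance alone flags about 5% of groups. Spc25 stood at 0.1728 CPM in double colored replicate 3 against 0.5862 to 0.6269 CPM in the others. Kif15 stood at 4.114 CPM in single colored replicate 1 against 1.605 to 1.873 CPM. Hmmr stood at 3.904 CPM in the same library against 2.094 to 2.302 CPM. Cdc20 stood at 1.172 CPM in double colored replicate 1 against 0.3181 to 0.3889 CPM.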

How the results depend on the processing

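The number of genes called was 309 over all tested genes and 0 among the members. Scaling by library totals gave 1390 and 12, DESeq2 556 and 1, and the replicate block 939 and 3. Without the filter it was 805 of 23680 genes tested and 2 of 38 members (Cenpe and Ccna2). Without both libraries numbered 1 it was 146 and 0. Leaving out 1 library gave 134 to 304 genes, of which 191 came from leaving out double colored replicate 2, 134 from replicate 4 of that group and 142 from single colored replicate 1, and 0 members each time. The members' median log2 fold change of 0.60 became 1.09 with library totals and 0.73 with nuclear-encoded totals, and ran from 0.43 to 0.74 without 1 library. The count of members with separate groups was 5, or 13.9% higher against 5.37% of all tested genes. It became 11 with library totals (30.6% against 15.9%) and 11 without both libraries numbered 1 (10 higher and 1 lower, 27.8% against 9.23% for higher). Without 1 library it ran from 5 to 10, with 13.9% to 27.8% of members against 6.16% to 7.96% of all tested genes higher, and was 10 without double colored 1 or single colored 2 and 8 without single colored 3. The cause of these shifts was not tested.

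Of 565 values of single members under the alternatives, 21 changed sign. Smc2 became 0.41 with library totals and 0.059 with nuclear-encoded totals, and Plk1 -0.019 with the replicate block. Without both libraries numbered 1, Kif15 was -0.080, Nusap1 -0.31 and Cdca2 -0.60. Without 1 library, Cenpa ran from -0.036 to 0.11 (negative when double colored 2 or 4 or single colored 4 was left out), Cdca2 from -0.45 to 0.42 (double colored 1 or 4, single colored 1), Kif4 from -0.083 to 0.39 (double colored 2, single colored 1), and Smc2 from -0.18 to 0.10. Kif11 ran from -0.082 to 0.47, Kif15 from -0.20 to 0.38 and Nusap1 from -0.19 to 0.28, each negative with single colored replicate 1 left out. Plk1 ran from -0.51 to 0.71 (single colored 3) and Cdc20 from -0.66 to 0.93 (single colored 4). At 1 CPM a member rests on 22.004 to 38.43 reads in a library, and members below that level rest on fewer.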
